A study of Rattus norvegicus with 10 samples.

Results

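The genes described here are 8 genes known from smooth muscle cells, pericytes and the fibroblasts that surround vessels. They are Tagln, Myl9, Acta2, Cnn1, Pdgfrb, Vtn, Dcn and Postn. They were picked by symbol, each symbol matched 1 gene ID, and together they are 8 of the 23487 genes in the count table. The study sequenced RNA of primary rat oligodendrocytes (OLs) and their progenitors (OPCs), with 5 groups of 2 libraries and 10 libraries in all. All cells came from cerebral cortices of P1-P3 Sprague-Dawley pups, through mixed glial cultures from which OPCs were shaken off and cleared of adhering cells. OLs were sampled 5 days after transfection with 30 nM of a miR-145-5p mimic (OL miR-145), of that mimic together with a miR-219 mimic (OL miR-145+miR-219), or of a scrambled mimic (OL miR-ctl). OPCs were sampled 24 h after transfection with 30 nM of a miR-145-5p inhibitor (OPC anti-miR-145) or of a scrambled inhibitor (OPC anti-miR-ctl). OL medium held triiodothyronine and CNTF, whereas OPC medium held FGF2 and PDGF-AA. The 2 libraries grouped as OL miR-145 carry a treatment tag that also names miR-219, while their titles name miR-145 alone. The labels do not say that replicates came from separate cultures. The study describes the replicates of all its experiments as biological. Its definition for primary cultures names a culture from an individual mouse, whereas these cells are rat. P-values therefore measure only the spread between these libraries.

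Smooth muscle contracts through actin and myosin filaments, and its program is carried by a set of actin-binding genes that serum response factor drives through CArG boxes in their promoters. Mural cells, which are smooth muscle cells and pericytes on vessel walls, depend on PDGF-B from endothelium and its receptor PDGFRβ. MiR-145 is best known from this lineage, where it is abundant and favours the contractile state, with Klf4 and Klf5 among its known targets. In bulk RNA, fewer cells of a type and less RNA per cell cannot be told apart.

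The sequences below are the rat mature miRNAs that the mimics and the inhibitor refer to, from RefSeq (GRCr8), with the seed (bases 2 to 8) in capitals. The labels name the arm for miR-145-5p only, and the miR-219 entry shown is miR-219a-5p. The seeds differ.
rno-miR-145-5p: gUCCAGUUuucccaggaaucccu
rno-miR-219a-5p: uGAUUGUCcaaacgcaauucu

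Levels are given as CPM, that is counts scaled to a common library total with TMM factors over all 10 libraries. Totals ran from 33505706 to 42684206 counts per library, so 1 library's floor of 3 counts lay at 0.0703 to 0.0895 CPM, a limit that covers counting error only. Levels of different genes are not compared, since no transcript length was given. Tagln, Myl9, Pdgfrb and Postn stood clear of the floor in most libraries. Acta2, Cnn1, Vtn and Dcn did not, and are described by their counts. A gene was tested in a comparison where 2 or more of the 4 libraries held 5 or more counts of it, and was called at an adjusted p under 0.05 by edgeR's quasi-likelihood test over all genes.

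**Figure D1:**
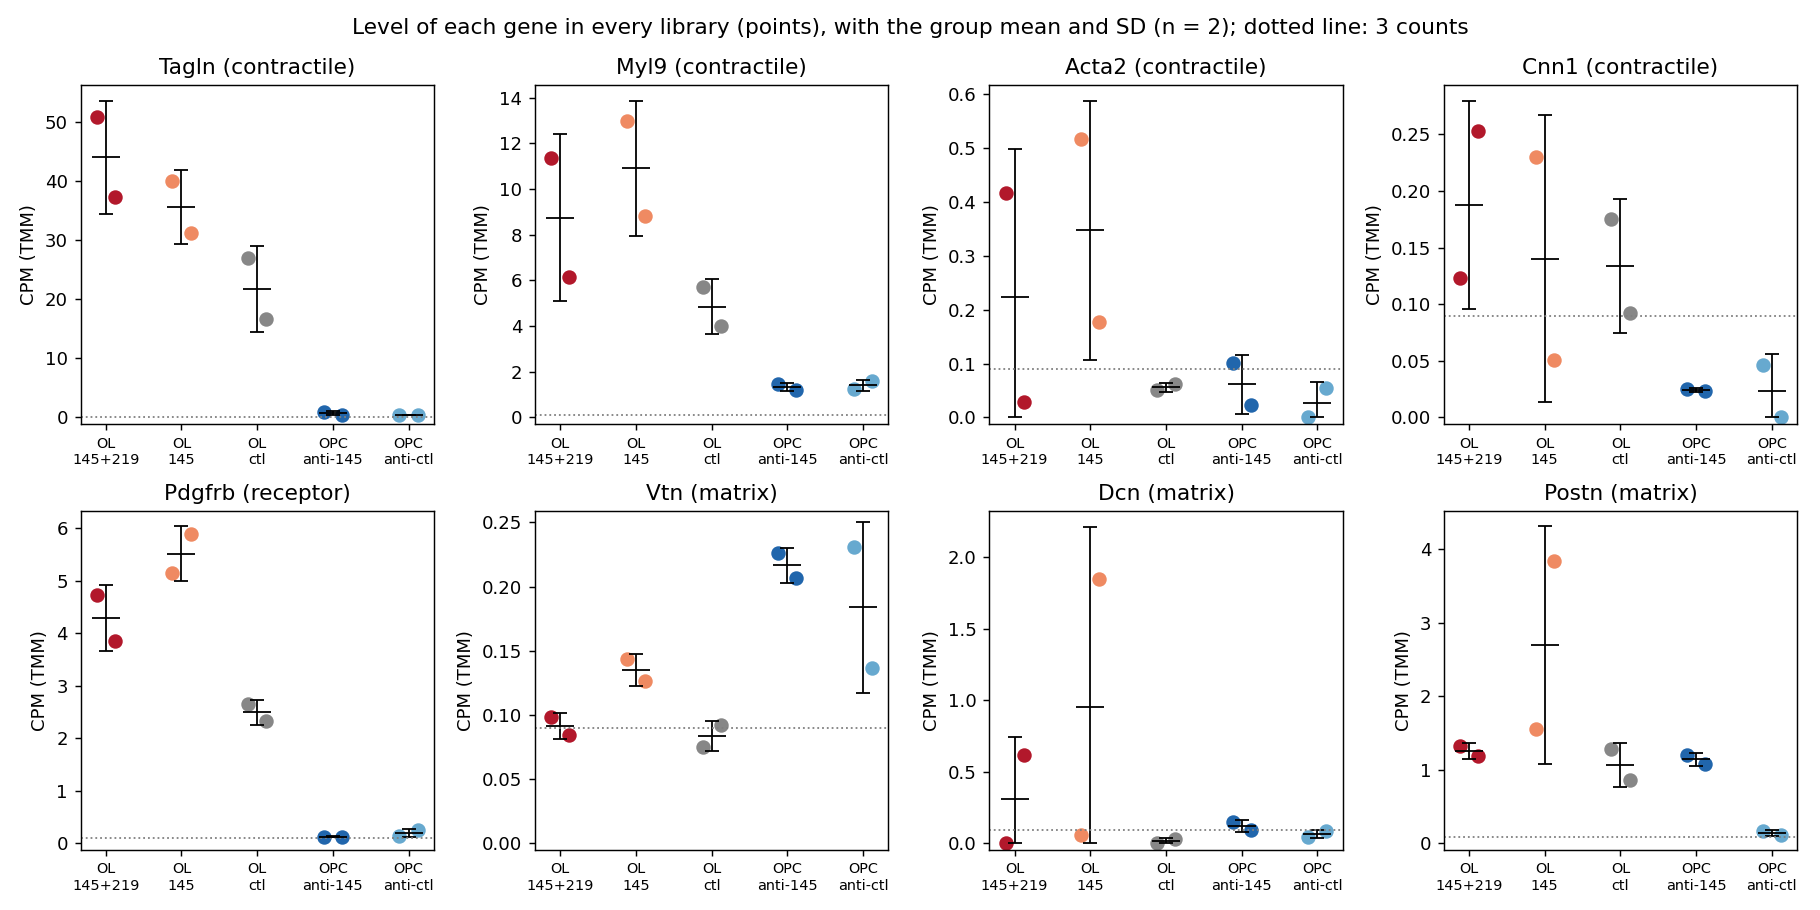
Level of each of the 8 genes in CPM (y axes, linear, differing between panels) in the 5 groups (x axes). Points are libraries, bars are group means with SD (n = 2, cut at 0), and the dotted line is the highest floor of 3 counts. Tagln, Myl9 and Pdgfrb lie far lower in OPCs than in OLs, Postn is low only in OPC anti-miR-ctl, and Dcn exceeds 1 CPM in 1 library.

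Among the contractile genes, Tagln (ENSRNOG00000017628) encodes transgelin (SM22α), an actin-binding protein and early smooth muscle marker. Its counts were 2067 and 1326 in OL miR-145+miR-219, 1391 and 1231 in OL miR-145, 1072 and 541 in OL miR-ctl, 36 and 19 in OPC anti-miR-145, and 17 and 14 in OPC anti-miR-ctl. These correspond to 44.0 ± 9.55, 35.6 ± 6.28, 21.8 ± 7.30, 0.671 ± 0.331 and 0.388 ± 0.00658 CPM (mean ± SD, n = 2 in each group). The highest 2 groups overlapped, and each later step down this order separated groups without overlap.

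Myl9 (ENSRNOG00000020246) encodes a regulatory light chain of myosin found in smooth muscle and in non-muscle cells. Its counts were 462 and 219, 452 and 349, and 227 and 130 in the OL groups with both mimics, miR-145 and miR-ctl. In OPCs they were 58 and 52 with anti-miR-145 and 54 and 58 with anti-miR-ctl. In order, mean levels were 10.9 ± 2.95 CPM in OL miR-145, 8.75 ± 3.67 with both mimics, 4.84 ± 1.21 in OL miR-ctl, 1.42 ± 0.241 in OPC anti-miR-ctl and 1.33 ± 0.185 in OPC anti-miR-145 (n = 2 each). OL miR-145 and OL miR-145+miR-219 overlapped, as did the OPC groups.

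Acta2 (ENSRNOG00000058039), smooth muscle α-actin, and Cnn1 (ENSRNOG00000027736), calponin, both actin filament proteins of differentiated smooth muscle, were close to undetected. Acta2 had 17 and 1 counts in OL miR-145+miR-219, 18 and 7 in OL miR-145, 2 and 2 in OL miR-ctl, 4 and 1 in OPC anti-miR-145 and 0 and 2 in OPC anti-miR-ctl. Only 3 of the 10 libraries held 5 or more, all of them OLs given miR-145. Cnn1 had 5 and 9, 8 and 2, 7 and 3, 1 and 1, and 2 and 0 counts in the same order of groups. Every pair of neighbours in the order of the Acta2 levels overlapped, and for Cnn1 only OL miR-ctl and OPC anti-miR-145 did not. Acta2 shares much of its coding sequence with Actb and Actg1, which reached 172905 and 106920 counts in a library, so a few Acta2 counts are uncertain. Of its closest relatives Actg2 had at most 17 counts.

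Pdgfrb (ENSRNOG00000018461) is the receptor by which mural cells answer PDGF-B. It had 193 and 137 counts in OL miR-145+miR-219, 179 and 233 in OL miR-145, 106 and 76 in OL miR-ctl, 5 and 5 in OPC anti-miR-145 and 6 and 9 in OPC anti-miR-ctl. Its level was 5.52 ± 0.525 CPM in OL miR-145, 4.29 ± 0.630 with both mimics, 2.495 ± 0.234 in OL miR-ctl, 0.192 ± 0.0762 in OPC anti-miR-ctl and 0.1203 ± 0.00755 in OPC anti-miR-145 (n = 2 each). No neighbours in this order overlapped.

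The matrix genes were the least alike of the 8. Vtn (ENSRNOG00000010031), vitronectin, a secreted adhesion protein that brain pericytes make, had 3 to 5 counts in each OL library and 5 to 10 in each OPC library. Dcn (ENSRNOG00000004554), decorin, a small proteoglycan of fibroblasts, had 73 counts in OL miR-145 replicate 2 and 22 in OL miR-145+miR-219 replicate 2. The other 8 libraries held 0 to 6 Dcn counts. Postn (ENSRNOG00000012660), periostin, a matricellular protein of fibroblasts, had 54 and 42 counts in OL miR-145+miR-219, 54 and 152 in OL miR-145, 51 and 28 in OL miR-ctl, 48 and 47 in OPC anti-miR-145, and 7 and 4 in OPC anti-miR-ctl. Its mean was 2.70 ± 1.62 CPM in OL miR-145, between 1.07 and 1.25 CPM in the next 3 groups, and 0.136 ± 0.0369 CPM in OPC anti-miR-ctl (n = 2 each). Within those next 3 groups neighbours overlapped, and OPC anti-miR-ctl lay below all of them.

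Other genes set the identity of the cultures. Mbp, an abundant myelin gene, lay at 6215 to 15530 CPM in the OL libraries and at 234 to 279 CPM in the OPC libraries. The summed level of the other mural markers did not follow that of the 8 genes, while single markers went both ways. Notch3 read 26.8 CPM in OL miR-145, 13.2 CPM in OL miR-ctl and 1.08 CPM in OPC anti-miR-ctl. Between control OLs and control OPCs, 3 of 11 mural IDs were called higher and 2 lower, beside 28.8% and 28.7% of all genes. Kcnj8 and Abcc9, subunits of the pericyte potassium channel, had 2 to 11 and 5 to 14 counts in OL libraries, and 0 and 0 to 8 in OPC libraries. Rgs5, Higd1b, Tbx18 and Des were not analysed here, and neither were Myocd, Lum and Col1a2. The summed level of the other mural list (12 gene IDs) ran from 241 to 414 CPM in OL libraries and from 389 to 611 CPM in OPC libraries, with Cspg4, which OPCs make as well, the most abundant of them in OPCs and Mcam in OLs. Astrocyte markers (10 gene IDs, none at 0 in any library) summed to 5950 to 14590 CPM in OL and 558 to 809 CPM in OPC libraries. Endothelial markers (7 gene IDs) summed to 16.6 to 29.6 CPM in OLs and 3.997 to 13.4 CPM in OPCs, with Kdr and Esam the highest of them by mean over the 10 libraries. Flt1, named after its values were seen, read 10.3 ± 0.390 CPM in OPC anti-miR-ctl and at most 0.882 ± 0.174 CPM in the other groups (mean ± SD, n = 2), and Pecam1 and Cldn5 were not analysed here.

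**Figure D2:**
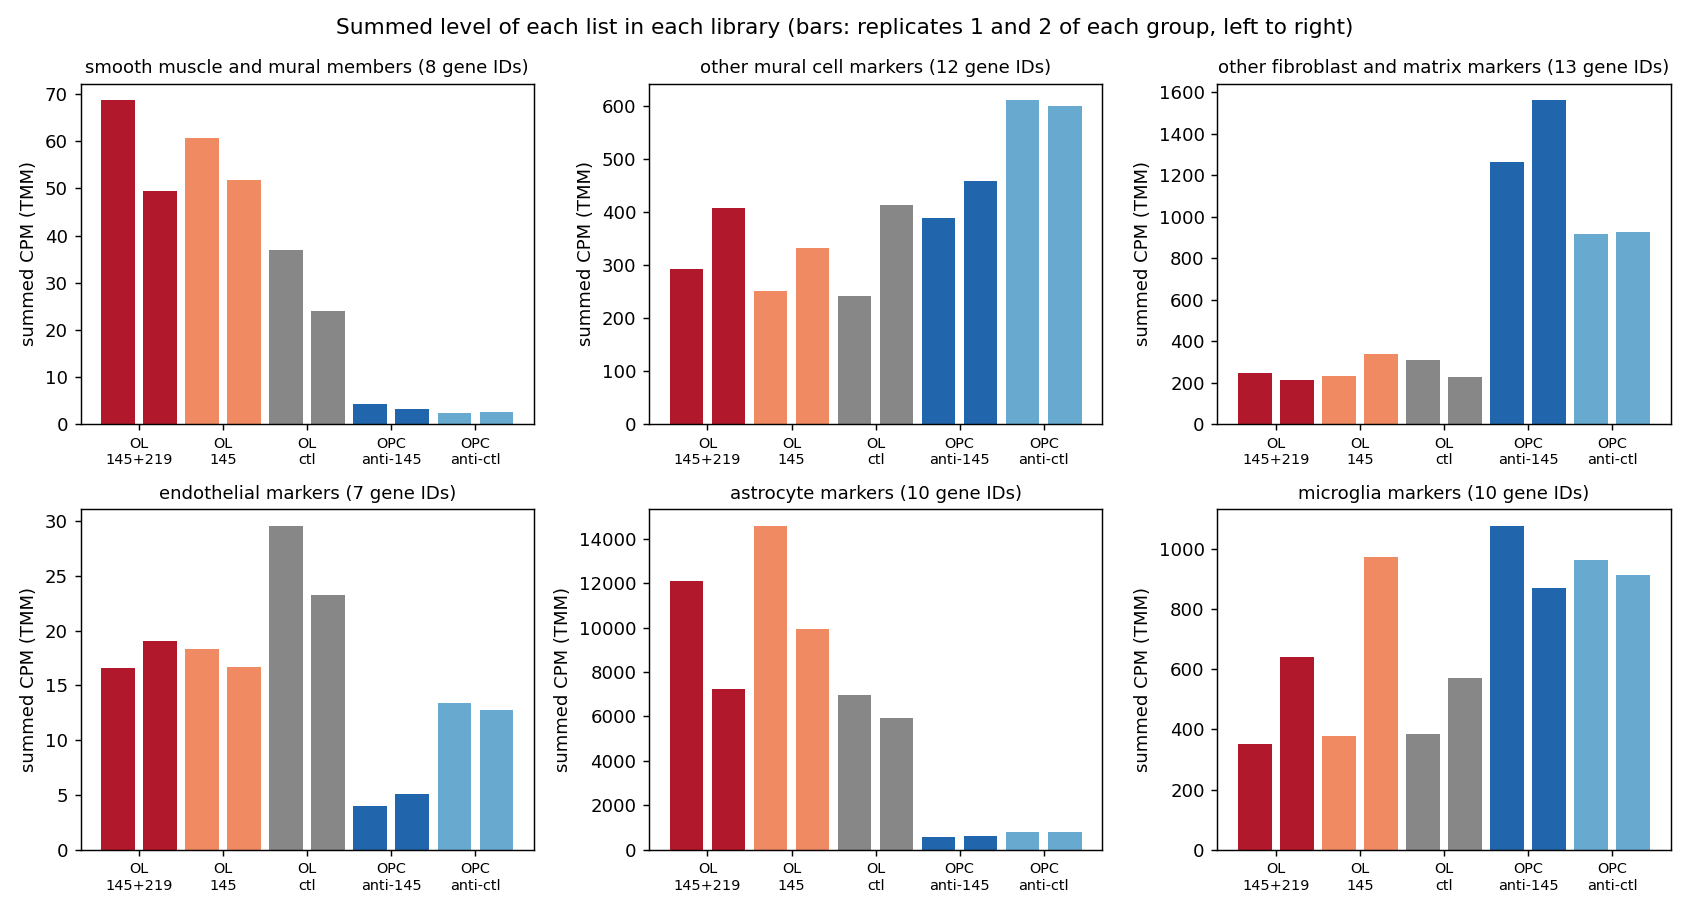
Summed CPM (y axes, linear from 0, differing between panels) of 6 gene lists in the 10 libraries (bars, coloured by group, replicates 1 and 2 from left to right). The 8 genes and the astrocyte list are low in all 4 OPC libraries, whereas the fibroblast list is higher in all 4 OPC libraries than in OLs and the mural list is highest in OPC anti-miR-ctl. Pdgfra and Cspg4, which OPCs also express, are the most abundant genes of these lists in OPCs.

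The first comparison asked what the miR-145 mimic did in OLs, against the scrambled mimic. Of the 8 genes 7 were tested and edgeR called 0 of them, as it called 0% of the 15461 genes tested, of which 2067 had an unadjusted p under 0.05. This depended on the model. With a block for the replicate number, which no label ties to a shared culture, edgeR called 14.7% of all genes, members among them. Acta2 and Vtn passed the filter only through the miR-145 libraries, where their counts are the higher, so no tally over the 7 is given. Tagln, Myl9, Pdgfrb and Postn, which held 28 counts or more in every OL library, each lay above both controls in both miR-145 libraries, as 22.9% of all genes did. Each also had an unadjusted p under 0.05, as 8.99% of all genes did that were higher.

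Myl9 read 5.70 and 3.99 CPM in the control libraries and 12.99 and 8.82 CPM with miR-145, without overlap, a log2 fold change of 1.17 (SE 0.291, edgeR adjusted p = 0.206). Pdgfrb read 2.66 and 2.33 CPM in the controls and 5.15 and 5.89 CPM with miR-145, a log2 fold change of 1.15 (SE 0.240, edgeR adjusted p = 0.173). For these genes DESeq2 gave adjusted p = 0.0207 and 0.0165, so that it called 2 of the members higher, against 3.46% of the genes tested. Both genes kept log2 fold changes between 0.87 and 1.46 when any library was left out, and no such fit called them.

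Tagln, at 26.9 and 16.6 CPM in the controls and 39.99 and 31.1 CPM with miR-145, had a smaller log2 fold change of 0.71 (SE 0.262, edgeR adjusted p = 0.348). It was 0.40 without OL miR-ctl replicate 2 and 1.11 without OL miR-ctl replicate 1. Acta2 amounted to 25 counts over the miR-145 libraries and 4 over the controls, and it passed the filter only through the miR-145 libraries. Replicates differed beyond counting error, so these counts alone do not show a difference. Its edgeR adjusted p was 0.304. Cnn1 had a log2 fold change of 0.01 (SE 0.934) and Vtn of 0.68 (SE 0.672), on counts too low to show a difference at this depth.

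Postn and Dcn rested on OL miR-145 replicate 2. Postn had 1.55 and 3.84 CPM with miR-145 and 1.28 and 0.858 CPM in the controls, a log2 fold change of 1.34 (SE 0.521, edgeR adjusted p = 0.365), and of 0.53 (SE 0.466) without that library. Dcn, with 2 and 73 counts against 0 and 1, reached 5 counts in only 1 of these 4 libraries and was not tested. The same library was the highest of all 10 for the collagens Col1a1, at 16.4 CPM against at most 2.78 CPM elsewhere, and Col3a1, at 29.9 CPM against at most 3.05 CPM. It was also the highest for fibronectin, Fn1, at 78.2 CPM against at most 28.8 CPM. These 3 matrix genes were chosen after their values were seen. Their part in the Postn and Dcn values was not tested.

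**Figure D3:**
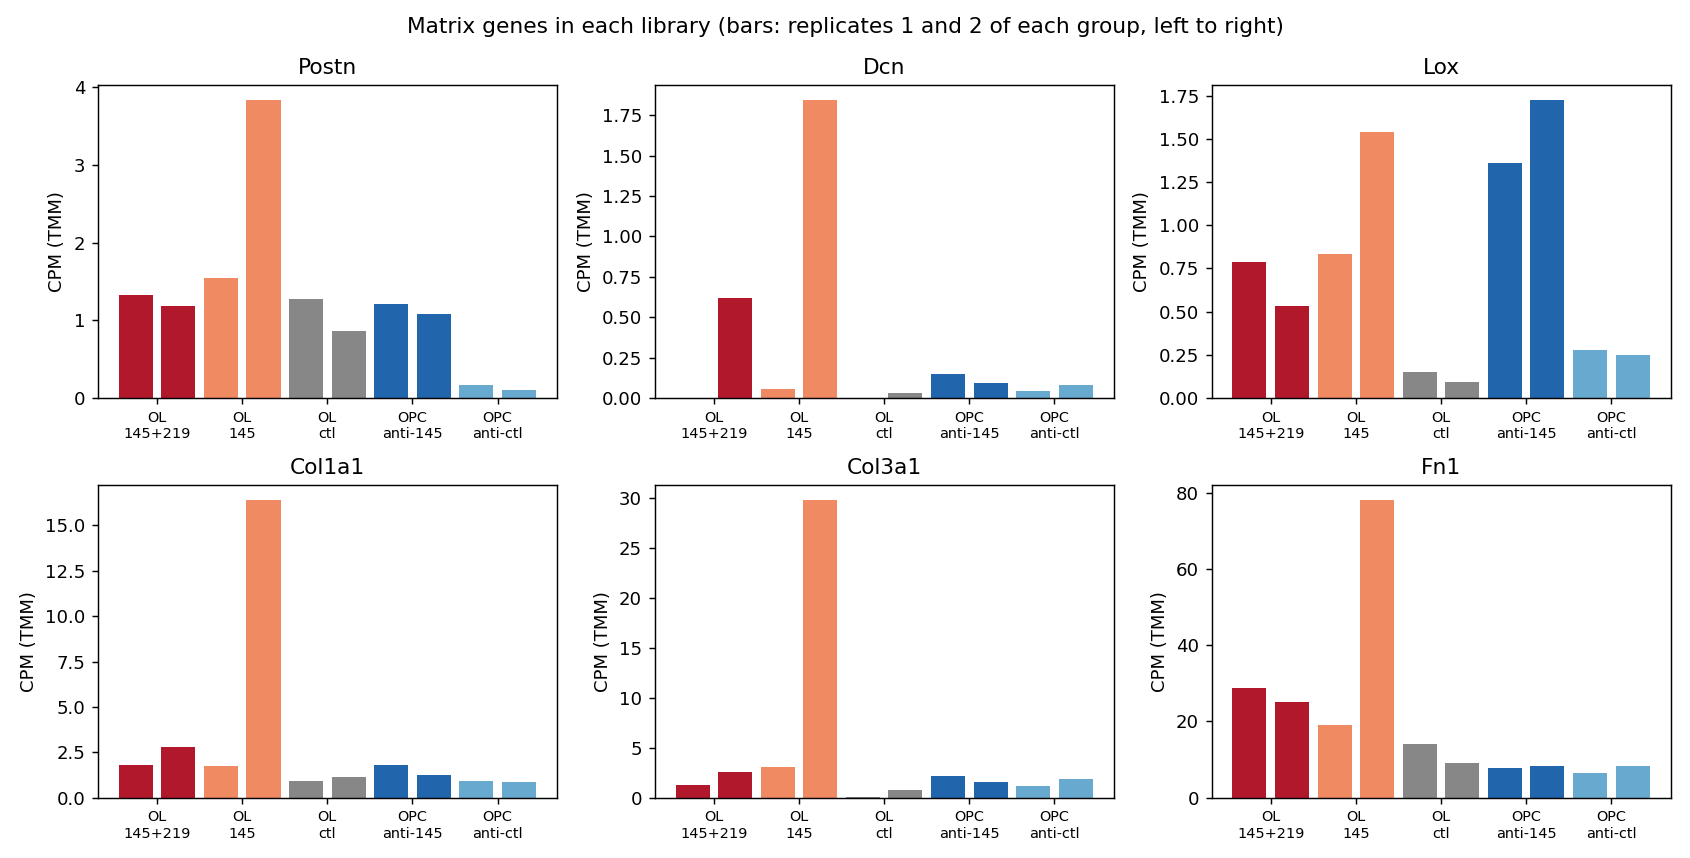
CPM (y axes, linear from 0, differing between panels) of Postn, Dcn and 4 other matrix genes in the 10 libraries (bars, coloured by group, replicates 1 and 2 from left to right). OL miR-145 replicate 2 is the highest library for Postn, Dcn, Col1a1, Col3a1 and Fn1, while Lox and Postn are both higher in OPC anti-miR-145 than in OPC anti-miR-ctl.

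None of the other lists held a gene that edgeR called in this comparison. Of 19 other contractile and cytoskeletal genes tested, 18 had a log2 fold change above 0, with a median of 0.46 against -0.011 over all genes. Without overlap, 10 of them lay above the controls, against 22.9% of all genes. Myh11, the smooth muscle myosin heavy chain, named after its value was seen, read 13.9 and 18.1 CPM with miR-145 and 8.46 and 8.49 CPM in the controls (edgeR adjusted p = 0.171). The 17 regulators had a median of -0.06, with 6 above 0. Klf4 and Klf5, named above as known targets of miR-145, both overlapped the controls. Klf4 read 0.575 and 1.087 CPM with miR-145 and 0.8535 and 1.073 CPM in the controls. Klf5 read 3.967 and 5.458 CPM with miR-145 and 3.389 and 4.108 CPM in the controls. The other mural markers had a median of 0.56 over 12 gene IDs, and the fibroblast and matrix markers of 1.36 over 13. Without overlap, 9 of the 13 fibroblast and matrix IDs lay above the controls and 2 below, and 4 and 2 of the mural IDs. Astrocyte markers leaned higher as well. All 10 had a log2 fold change above 0, with a median of 0.88, and 9 lay above the controls without overlap, against 22.9% of all genes. Gfap and S100b, the most abundant, read 9675 and 6713 CPM and 1397 and 959 CPM with miR-145, against 4794 and 4172 CPM and 524 and 520 CPM in the controls. The astrocyte sum was 9955 to 14590 CPM with miR-145 and 5950 to 6980 CPM in the controls, with no marker at 0. Endothelial markers had a median of -0.00208 over 6 gene IDs. Microglia markers, whose sum was 378 and 974 CPM with miR-145 and 385 and 573 CPM in the controls, had a median of 0.79. All 10 microglia markers had a log2 fold change above 0, and 3 lay above the controls without overlap. Oligodendrocyte lists leaned the other way, with a median of -0.38 over 8 progenitor markers and of -0.30 over 10 maturing markers. Below the controls without overlap lay 5 of the progenitor and 4 of the maturing markers. The share of all genes that lay below was not computed for this comparison. The part of these cells in the values of Tagln, Myl9 and Pdgfrb was not tested.

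With both mimics against the scrambled mimic, 5 of the 8 genes were tested and edgeR called none, as it called 0% of 15436 genes, with 956 at an unadjusted p under 0.05. This comparison uses the same controls as the one before. Cnn1 passed the filter only through the libraries with both mimics, so no tally over the 5 is given. Tagln, Myl9 and Pdgfrb each lay above the controls without overlap, as 17.2% of all genes did. At an unadjusted p under 0.05, Tagln and Pdgfrb were higher, as 3.96% of all genes were. Tagln read 50.8 and 37.2 CPM, a log2 fold change of 1.02 over the control (SE 0.284, edgeR adjusted p = 0.800). Myl9 read 11.3 and 6.15 CPM (0.86, SE 0.365, edgeR adjusted p = 0.814) and Pdgfrb 4.74 and 3.85 CPM (0.79, SE 0.239, edgeR adjusted p = 0.800). Postn, at 1.33 and 1.18 CPM, overlapped the controls, with a log2 fold change of 0.23 (SE 0.355), and Cnn1 had 0.44 (SE 0.683). DESeq2 called 0 of the members here and 0.473% of genes as higher. Acta2, with 17 counts in replicate 1 and 1 in replicate 2, was not tested, and neither were Vtn and Dcn. The astrocyte sum was 12100 and 7222 CPM, against 5950 to 6980 CPM in the controls, with 6 of 10 markers above the controls without overlap. In each of the 3 OL groups the library richer in astrocyte markers, replicate 1, also had the higher Tagln and Myl9. It had the higher Pdgfrb except in OL miR-145, at 5.15 against 5.89 CPM, and the higher Acta2 except in OL miR-ctl, at 2 counts in each library. Replicate 1 of each OL group also had the higher progenitor sum and the lower microglia, other mural and maturing oligodendrocyte sums. For maturing markers, replicates 1 and 2 read 20550 and 36260 CPM with both mimics, 16540 and 26430 with miR-145, and 18290 and 33140 in controls. The link of these genes to any of these lists was not tested.

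Adding miR-219 to miR-145 gave no call among the 8 genes, all of which were tested, as edgeR called 0% of 15501 genes, with 228 at an unadjusted p under 0.05. None of the 8 had an unadjusted p under 0.05 in either direction, against 1.47% of all genes. Pdgfrb and Postn lay below miR-145 alone without overlap, as 11.6% of all genes did. Vtn did as well, at 4 and 3 counts against 5 and 5, but it passed the filter only through the miR-145 libraries. The log2 fold change of both mimics over miR-145 alone was 0.30 for Tagln (SE 0.205), -0.32 for Myl9 (SE 0.360) and -0.37 for Pdgfrb (SE 0.221), each with an edgeR adjusted p of 1. For Postn it was -1.12 (SE 0.503), against miR-145 libraries of which replicate 2 stood apart. DESeq2 also called 0 of the 8. These values do not show that the treatments act alike.

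In OPCs, the inhibitor was compared with its scrambled control, which addressed the loss of miR-145 in place of its gain. Tagln, Myl9, Pdgfrb and Vtn, which held 5 counts or more in all 4 libraries, were not called by edgeR. Postn was called, and it was higher. It read 1.21 and 1.08 CPM (48 and 47 counts) with anti-miR-145 and 0.162 and 0.109 CPM (7 and 4 counts) in the controls. It passed the filter through the inhibitor libraries, since 1 control library held fewer than 5 counts. No tally over the genes tested is given for this reason. The log2 fold change of Postn was 3.02 (SE 0.392, edgeR adjusted p = 0.00171), and 2.76 to 3.31 with any of the 4 libraries left out. Of all 15496 genes 12.1% were called higher and 16% lower, so calls were common in this comparison.

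Tagln had 0.905 and 0.437 CPM against 0.392 and 0.383 CPM, a log2 fold change of 0.77 (SE 0.454, edgeR adjusted p = 0.248), which rested on OPC anti-miR-145 replicate 1. With replicate 2 of that group left out it was called, at 1.22 and edgeR adjusted p = 0.0346, and with replicate 1 left out it was 0.14 (edgeR adjusted p = 0.845). Myl9 did not separate the groups, with a log2 fold change of -0.11 (SE 0.270). Pdgfrb, at 5 and 5 counts against 6 and 9, had -0.66 (SE 0.573), and Vtn, at 9 and 9 against 10 and 5, had 0.20 (SE 0.504). Acta2, Cnn1 and Dcn had at most 6 counts in any OPC library and were not tested.

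Genes around the 8 were called in both directions, as were 12.1% (higher) and 16% (lower) of all genes tested. Of 20 other contractile genes tested, 3 rose and 4 fell. Cald1, caldesmon, an actin-binding regulator of contraction, rose by 0.93 on the log2 scale (SE 0.0977, edgeR adjusted p = 6.51e-04), with Tgfb1i1 (0.43) and the adhesion protein Vcl (0.32). Smtn, smoothelin, fell by 0.78, Tpm1 fell by 0.77, Actn1 fell by 0.67 and Myh11 fell by 0.51. Leaving out single libraries gave 1 to 5 genes higher, lowest without either OPC anti-miR-ctl library and highest without OPC anti-miR-145 replicate 2, and 3 to 7 lower, highest without OPC anti-miR-145 replicate 1. Of 17 regulators 2 rose and 6 fell, beside the same shares of all genes. Klf5, a factor of proliferating smooth muscle, rose by 1.19 (SE 0.196, edgeR adjusted p = 0.00483) and the receptor Tgfbr1 by 0.31. Klf4, which represses the contractile genes, fell by 1.73 (SE 0.277, edgeR adjusted p = 0.00424), Tgfb1 fell by 1.06, the Notch ligand Jag1 fell by 0.94 and the mural receptor Notch3 fell by 1.65. Without OPC anti-miR-ctl replicate 1 the list held 1 gene called higher and 3 lower, and without replicate 2 of that group 1 higher.

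Among the other mural markers 4 of 9 gene IDs fell and none rose, beside 16% and 12.1% of all genes. Besides Notch3 and Myh11 these were the proteoglycan Cspg4, which fell by 0.56, and the peptidase Anpep, which fell by 1.63. Without OPC anti-miR-ctl replicate 1, 2 IDs were called lower, and without replicate 2 of that group 1 was called higher. Of 11 fibroblast and matrix IDs tested 2 rose and 1 fell, beside the same shares of all genes. Lox, which crosslinks collagen, rose by 2.53 (SE 0.333, edgeR adjusted p = 0.00183), from 0.277 and 0.246 CPM in the controls to 1.36 and 1.73 CPM. Pdgfra, a fibroblast marker that is also the growth factor receptor of OPCs, rose by 0.61 and the matrix gene Fbln1 fell by 0.83, a call lost without OPC anti-miR-145 replicate 1 and without OPC anti-miR-ctl replicate 2. With all 5 groups in a single fit, 1 contractile gene was called higher, 2 regulators and 0 mural IDs lower, and 1 fibroblast ID higher and 0 lower. Col1a1 and Col3a1 were not called (0.76, SE 0.297, and 0.27, SE 0.305). Beside Postn, 6 of 10 microglia markers rose and 4 fell, and C1qb rose by 1.34 while Csf1r fell by 0.41. For this list and the astrocyte list too, the shares over all genes were 12.1% higher and 16% lower. Of the astrocyte markers 2 of 10 rose and 5 fell, with Gfap up by 2.53, from 8.13 and 7.80 CPM to 41.3 and 51.8 CPM, and S100b down, as it fell by 0.85. The microglia sum was 870 to 1078 CPM with the inhibitor and 914 to 964 CPM in the controls, and the astrocyte sum 558 to 611 CPM against 786 to 809 CPM, with no marker of either list at 0. Their part in the Postn value was not tested.

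The last comparison set control OLs on day 5 against control OPCs. Stage, medium, time after transfection and the kind of control oligonucleotide all differ here and cannot be told apart. Tagln, Pdgfrb and Myl9, which held 5 counts or more in every library, were called higher in OLs. Of the 15721 genes tested, 28.8% were called higher and 28.7% lower. Postn was called higher as well and Vtn was not called. No tally over the genes tested is given, since Postn and Vtn each passed the filter through the libraries of a single stage. Tagln was 55.1-fold higher (log2 5.79, SE 0.341, edgeR adjusted p = 1.73e-04), Pdgfrb 12.9-fold (3.69, SE 0.372, edgeR adjusted p = 9.47e-04), Postn 7.61-fold (2.93, SE 0.449, edgeR adjusted p = 0.00391) and Myl9 3.40-fold (1.76, SE 0.275, edgeR adjusted p = 0.00415). Each of these was called with any of the 4 libraries left out. Postn passed the filter through the OL libraries and Vtn through the OPC libraries. Vtn, at 3 and 3 counts against 10 and 5, had a log2 fold change of -1.15 (SE 0.608, edgeR adjusted p = 0.163). Acta2, Cnn1 and Dcn had too few counts for the test.

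**Figure D4:**
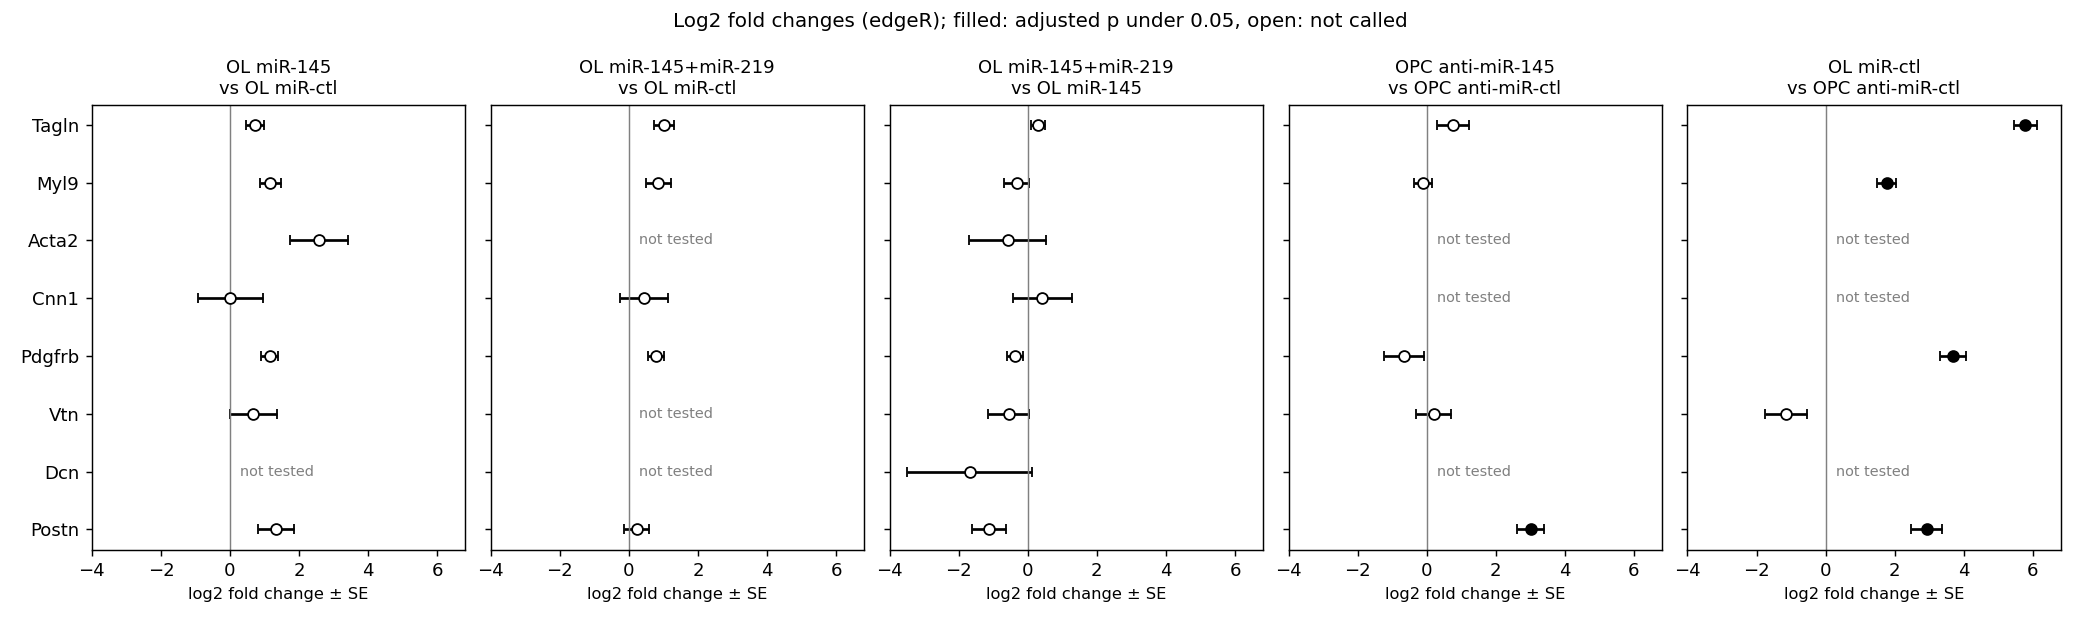
Log2 fold change with its SE (x axes) of the 8 genes (rows) in the 5 comparisons (panels), the group named first over the second, from edgeR. Filled points are called at an adjusted p under 0.05. Postn is called in OPCs given the inhibitor, and Tagln, Myl9, Pdgfrb and Postn between control OLs and control OPCs.

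Of 21 other contractile genes, 7 were called higher in OLs and 6 lower, beside 28.8% and 28.7% of all genes. Synpo2, an actin-bundling protein, rose from 0.0923 and 0.0274 CPM to 8.06 and 5.92 CPM (log2 6.73, SE 0.438, edgeR adjusted p = 2.27e-04). Csrp1, a LIM protein of smooth muscle, rose by 3.39 and Vcl by 0.99. Tpm1 fell by 3.56, Smtn fell by 2.86, Tpm2 fell by 2.63 and Actn1 fell by 0.68. With either OPC control library left out, 2 or 3 of the lower calls were made. Among 17 regulators 8 rose and 4 fell, beside the same shares of all genes. Pdgfb, the ligand of the Pdgfrb receptor, rose by 5.69 (SE 0.267, edgeR adjusted p = 9.47e-05), Notch3 by 3.58, Tgfb2 by 2.40 and Tgfbr1 by 0.99. Tgfb1 fell by 2.64, Klf4 fell by 1.46, Tgfbr2 fell by 0.85 and Jag1 fell by 0.78. Without OPC anti-miR-ctl replicate 1, 5 rose and 2 fell.

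Of 11 other mural IDs 3 rose and 2 fell, beside 28.8% and 28.7% of all genes. The same shares of all genes apply to each list in this paragraph. The adhesion molecule Mcam rose by 3.07, and Notch3 was again among the higher. Cd248 rose by 2.28 for 1 of its 2 gene IDs, between which counting may have split reads. Cspg4 fell by 2.93 and Anpep fell by 1.63, and without OPC anti-miR-ctl replicate 1 only 1 mural ID was called lower. Of 11 fibroblast and matrix IDs 5 rose, among them Fbln2 by 4.43, the surface protein Thy1 by 4.13, Col6a1 by 3.29 and Mgp by 2.35, and Pdgfra fell by 2.02, while 2 IDs were called lower with either control OL library left out. Astrocyte markers were higher too, 9 of 10, with Gfap up by 9.12 (SE 0.146) and the sum at 5950 to 6980 CPM in control OLs against 786 to 809 CPM in control OPCs. Of the endothelial markers 4 of 7 rose and 2 fell, and Kdr rose by 5.64 (SE 0.283). Of the microglia markers 1 of 10 rose and 4 fell. The part of these cell types in the rise of Tagln, Pdgfrb and Myl9 was not tested.

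The genes nearest to each profile were found by the root mean square difference of log2(CPM + 1), centred on each gene's mean over the 10 libraries, among 14560 genes. Tagln, whose own profile had an SD of 2.21 on that scale, lay nearest to Celsr1, Ret and Aldh1a1, at 0.213, 0.269 and 0.284. Celsr1, a planar polarity cadherin, followed the same order of the OL groups, from 25.5 and 21.1 CPM with both mimics and with miR-145 to 11.5 CPM in OL miR-ctl and under 0.1 CPM in both OPC groups. Myl9 (SD 0.999) lay nearest to the potassium channel Kcnn2, Nt5c1a and Krt32, at 0.100, 0.122 and 0.124. Pdgfrb (SD 1.07) lay nearest to Mcc, the glucose transporter Slc2a10 and Pld2, at 0.0937, 0.106 and 0.128.

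Postn (SD 0.564) lay nearest to Klhl6, Il16 and Loxl1, at 0.206, 0.224 and 0.235. Klhl6 and Il16 are known from blood-derived cells and Loxl1 from elastic matrix. Loxl1 read 2.06 ± 0.592 CPM in OL miR-145, 1.12 ± 0.228 CPM with both mimics, 0.574 ± 0.0752 CPM in OL miR-ctl, 0.536 ± 0.237 CPM in OPC anti-miR-145 and 0.154 ± 0.0538 CPM in OPC anti-miR-ctl (n = 2 each). Dcn (SD 0.451) lay nearest to LOC108348044, Plcb2 and Ocln, at 0.149 to 0.172, a profile set by its 2 highest libraries. For Acta2, Cnn1 and Vtn the profile itself had an SD of 0.0704 to 0.198, so that little sets one near gene from another. By the same measure these were Poldip2, Gfm1 and Ubac1 for Acta2, Guca1b, Spag16 and Ptgdrl for Cnn1, and F2rl2, Ss18 and Fam170b for Vtn.

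**Figure D5:**
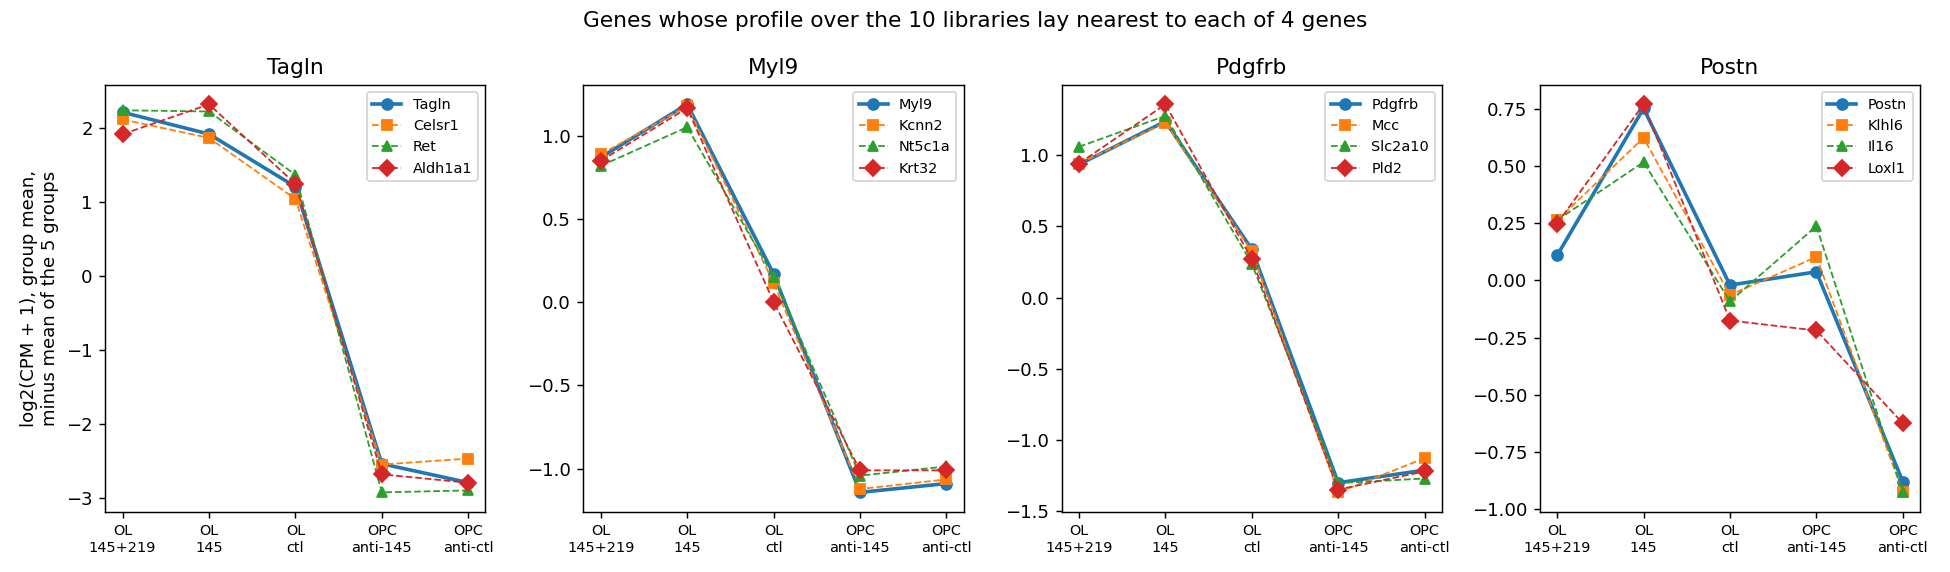
Group means of log2(CPM + 1), each minus the gene's mean over the 5 groups (y axes), for Tagln, Myl9, Pdgfrb and Postn (solid lines) and the 3 genes nearest to each (dashed lines) over the 5 groups (x axes). The Tagln, Myl9 and Pdgfrb profiles are higher in both OL groups given miR-145, alone or with miR-219, than in OL miR-ctl, and low in both OPC groups, whereas Postn is low in OPC anti-miR-ctl alone.

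Promoter windows of 300 bases were found for 4 of the 8 genes, Acta2, Cnn1, Vtn and Postn, in the RefSeq table (GRCr8), and Tagln, Myl9, Pdgfrb and Dcn had no entry. They were searched for the CArG box, which is CC, then 6 letters that are each A or T, then GG, and for the same with 1 of the 6 other than A or T. Each pattern is its own reverse complement, so both strands were covered. None of the 4 held the strict box, which 1.64% of the 33469 promoters held. The relaxed box, which includes the strict one, was found in Acta2 alone, and in 9.42% of all promoters. Of the 21 other contractile genes with a window, 3 held the strict box, Acta1, Actc1 and Cnn2. The Acta2 stretch is shown because this gene, with its boxes, stayed at 0 to 18 counts in every library. It is the 150 bases before the start of the gene, on the minus strand at chr1:241172504-241172653 of GRCr8, with the boxes in capitals, 134 and 84 bases before the start. A match is a description of the letters only.
Acta2 promoter: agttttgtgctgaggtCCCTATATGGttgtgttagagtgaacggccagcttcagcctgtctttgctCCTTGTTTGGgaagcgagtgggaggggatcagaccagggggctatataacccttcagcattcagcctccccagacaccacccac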

How the data were processed

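Stranded mRNA libraries of 10 rat samples were sequenced on an Illumina NextSeq. The authors assigned reads to GENCODE Rnor6.0 transcripts with Salmon 0.12.0, summed them per gene with tximport and deposited estimated counts, not normalized. Their DESeq2 table of OL miR-145 against OL miR-ctl also holds fold changes and p-values, and only its gene symbols were used. The paper's methods name lentivirus for the sequenced cells, whereas its results text names mimics used in place of lentivirus, as the labels do. Groups were taken from titles, and counts were rounded. For every comparison edgeR 4.0.16 in R 4.3.3 was run on the 4 libraries concerned (TMM, estimateDisp, glmQLFit, glmQLFTest, Benjamini-Hochberg over all genes tested), with SE as the log2 fold change over the square root of F. Alternatives were DESeq2 1.42.0, its size factors, other filters, a single fit of all groups, a block for the replicate number and leaving out each library. The code was tested on simulated data. Replicates differed beyond counting error in every group. Besides the 8 genes, up to 4 calls per direction, list and comparison are named, by smallest p, with the 2 most abundant markers of other cell types, relatives of the members and the 3 nearest profiles. The members and lists were chosen with earlier results of these data known. Of the genes this rule names, 2 are not reported here.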

Additional observations from a re-analysis of the deposited data

How the results depend on the processing

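Of 284 refits of a fold change of the 8 genes, 263 kept their direction and side of the threshold, 9 passed it in addition and 12 changed sign. In the OL miR-145 comparison, DESeq2 called 2 of the 8 genes and the replicate block 5 (Acta2, Tagln, Myl9, Pdgfrb and Postn), where the fit without it called 0, and the replicate block called 2272 of all genes tested (14.7%). With both mimics the replicate block called 1 gene, Tagln, at 1.04, and 132 of all genes (0.855%). Leaving out a library gave 0 calls in each of the 3 OL mimic comparisons, 1 to 2 in the OPC inhibitor comparison and 4 in the stage comparison, beside 0%, 15.5% to 46.7% and 31.4% to 67.3% of all genes. The replicate block changed no other call of the 8 genes. Same-number deviations correlated at 0.404, 0.468 and 0.631 in the OL comparisons, at -0.152 in the OPC inhibitor comparison and at 0.0668 in the stage comparison. With the numbers crossed in the OPC comparison, an alternative chosen after seeing the data, 5536 genes were called, against 3963 with the replicate block and 4348 without. Cnn1 in the OL miR-145 comparison was -0.0109 with the replicate block. With each library left out in turn, signs changed for 8 fold changes of low or overlapping genes. Cnn1 ran from -0.359 (without OL miR-ctl replicate 2) to 0.741 with miR-145 over control, from -0.149 to 0.995 with both mimics over control, and from -0.305 to 1.8 with both mimics over miR-145, where it was -0.156 without OL miR-145+miR-219 replicate 2. Postn with both mimics over control ran from -0.0291 (without OL miR-ctl replicate 2) to 0.556. With both mimics over miR-145, Acta2 ran from -3.46 to 0.353 and was 0.278 without OL miR-145+miR-219 replicate 2, and Myl9 ran from -0.83 to 0.0532. In the OPC inhibitor comparison Myl9 ran from -0.294 to 0.0495, and was 0.0448 without OPC anti-miR-ctl replicate 2, and Vtn ran from -0.135 to 0.615. The cause was not tested. Levels without TMM moved by at most 8.28%. Depth limits Acta2, Cnn1, Vtn and Dcn.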
